A study of Mus musculus with 19 samples.

Results

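The genes described here encode interleukins, CC and CXC chemokines, tumour necrosis factor (Tnf) and leukaemia inhibitory factor (Lif). Members were all genes whose array annotation symbol is Ccl or Cxcl with a number, or Il with a number and at most 1 letter from a to f, plus Tnf and Lif and without Il33. They numbered 65 of the 22180 genes measured, each read by 1 probe set. Ccl19 appeared only on probe sets that list several genes and was not a member. Transcripts were measured on Affymetrix whole-transcript arrays, 1 per heart, in 19 isolated mouse hearts. All hearts were perfused with buffer through the aorta (Langendorff preparation), stabilised for 20 min, left without flow for 20 min and reperfused for 20 min before freezing. Wild-type C57Bl6J mice gave 7 hearts at ZT0 (zeitgeber time 0, lights on) and 7 at ZT12 (lights off), and Rev-erb alpha knockout mice gave 5 hearts at ZT12. The labels give no strain for the knockout, no age and no account of how the allele was made. Hearts spared from ischemia and knockout hearts taken at ZT0 are not among the samples.

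Interleukins and chemokines are secreted proteins that signal through surface receptors. Chemokines draw leukocytes into tissue, and Il6, Il1b and Tnf are classic early mediators of inflammation in the reperfused heart, where resident macrophages, endothelium and fibroblasts can all make them. Many of their genes are induced through NF-kappaB. Rev-erb alpha, encoded by Nr1d1, is a nuclear receptor that represses transcription as part of the circadian clock, and in mouse macrophages it is known to repress inflammatory genes such as Ccl2 and Il6. A buffer-perfused heart receives no blood during perfusion, so blood leukocytes cannot enter it then.

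The array values were on a log2 scale, with array medians of 3.25 to 3.32 and correlations between arrays of 0.972 to 0.985. Nr1d1 was at 6.30 to 6.51 in the knockout hearts, inside the range of 5.76 to 7.28 in wild type. Where its probes lie relative to the deletion is not given in the sources used here, so this probe set does not check the genotype. Arntl, the clock activator gene that Rev-erb alpha represses, was at 6.28 to 6.77 in the knockout at ZT12 and at 3.72 to 4.31 in wild type at ZT12 (limma log2 difference 2.45, adjusted p = 1.24e-12). Markers of neutrophils, T cells and B cells were mostly dim: 1 of 7, 1 of 5 and 0 of 3 measured ones (Elane, Cd4 and none) lay above a background level set from olfactory receptor genes. The neutrophil list mean was at 2.16 to 2.47 over all hearts, and S100a8, a defining neutrophil gene, had group means of 1.74, 1.48 and 1.65. The macrophage list was well detected, with list means of 6.08 to 6.39 at ZT0, 5.97 to 6.44 at ZT12 and 5.40 to 6.27 in the knockout.

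To separate readable members from dim ones, each mean over the 19 hearts was set beside 1088 olfactory receptor genes, taken as little transcribed in heart. The 95th percentile of these genes was 3.201. Of the 65 members, 37 lay above it (56.9%, against 60.1% of all genes), and the other 28 had too little signal to be told from that background. The readable members included 10 of 13 inflammatory CC chemokines, 3 of 5 neutrophil-attracting ELR CXC chemokines, all 5 other CXC chemokines and 4 of 6 members of the interleukin 17 family. None of the 5 interleukin 10 family genes, of the 3 interleukin 12 family genes or of Il3 and Il5 was above it. By RefSeq, 18 members lie on chromosome 11, Ccl2, Ccl7, Ccl11 and Cxcl16 among them, and 13 on chromosome 5, Il6, Cxcl1, Cxcl2 and Cxcl13 included. Array signals of different genes depend on their probes as well as on RNA, so levels were compared between groups of hearts and not between genes. The plot of all members shows group means that mostly lie within each other's SD, with wide bars for Il6, Il1b, Ccl2, Tnf and Cxcl13.

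**Figure D1:**
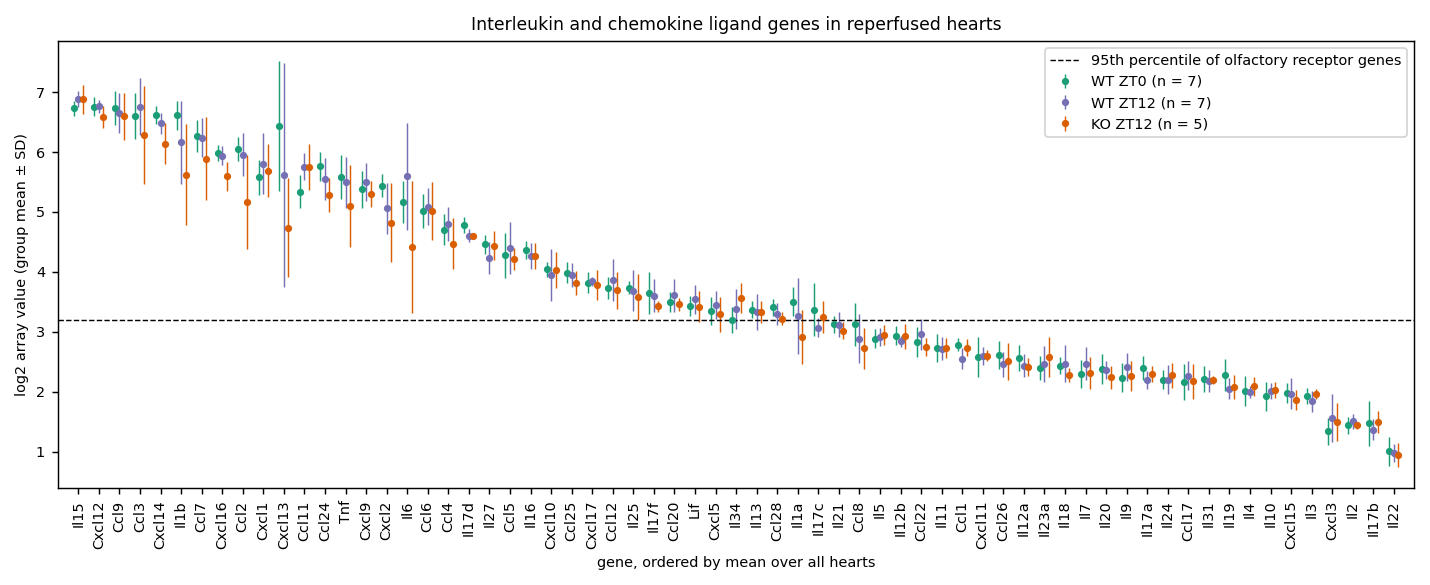
Each gene's log2 array value as the mean of WT ZT0 (n = 7), WT ZT12 (n = 7) and KO ZT12 (n = 5) hearts, with SD as bars, in order of the overall mean. The dashed line is the olfactory receptor level of 3.201, and 37 of the 65 genes have an overall mean above it.

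No member passed the test in any of the 3 comparisons. With limma over all 22180 genes and Benjamini-Hochberg adjustment at 0.05, 0 of 65 members were called between wild type at ZT12 and at ZT0, where 1.13% of all genes were. In knockout against wild type at ZT12 the count was again 0 of 65, against 0.73% of all genes. In the knockout at ZT12 against wild type at ZT0 it was 0 of 65, against 1.34%. At an unadjusted p under 0.05 the members gave 1 higher and 3 lower at ZT12 than at ZT0, which is 6.15% of members beside 11.5% of all genes (5.76% higher, 5.73% lower). The same limit gave 0 higher and 4 lower in knockout against wild type at ZT12, 6.15% of members beside 10.6% of all genes (5.35% higher, 5.21% lower). Against wild type at ZT0 the knockout had 2 higher and 9 lower, 16.9% of members beside 12.6% of all genes (6.44% higher, 6.15% lower). For the 37 readable members the shares were 5.41%, 10.8% and 29.7% in the same order. Those of all genes above the olfactory receptor level were 14.6%, 13% and 16.6%. The comparisons share groups of hearts and are not independent of each other.

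The members' median log2 difference was -0.017 for ZT12 minus ZT0, where 38 of 65 were below 0 (58.5%, against 51.2% of all genes). For knockout minus wild type at ZT12 the median was -0.092, and 44 members were below 0 (67.7%, against 51% of all genes). For knockout minus wild-type ZT0 it was -0.082, with 47 below 0 (72.3%, against 52.2%). The medians of all genes were -0.0035, -0.0030 and -0.0076 in the same order. Among the 37 readable members, 21 were below 0 between the times of day (56.8%, against 52.1% of all genes above the olfactory receptor level). In the knockout 31 were below 0 at ZT12 (83.8%, against 46.5%) and 32 against ZT0 (86.5%, against 48.4%). Their medians there were -0.15 and -0.16. Of the 28 dim members, 60.7%, 46.4% and 53.6% were below 0 in the same order. These counts describe the list and were not tested. The number of arrays limits what a single gene can show: the 95% interval of a member's log2 difference had a median half-width of 0.24 for the times of day and 0.26 wherever the knockout was compared. For the readable members these half-widths were 0.30 and 0.33.

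**Figure D2:**
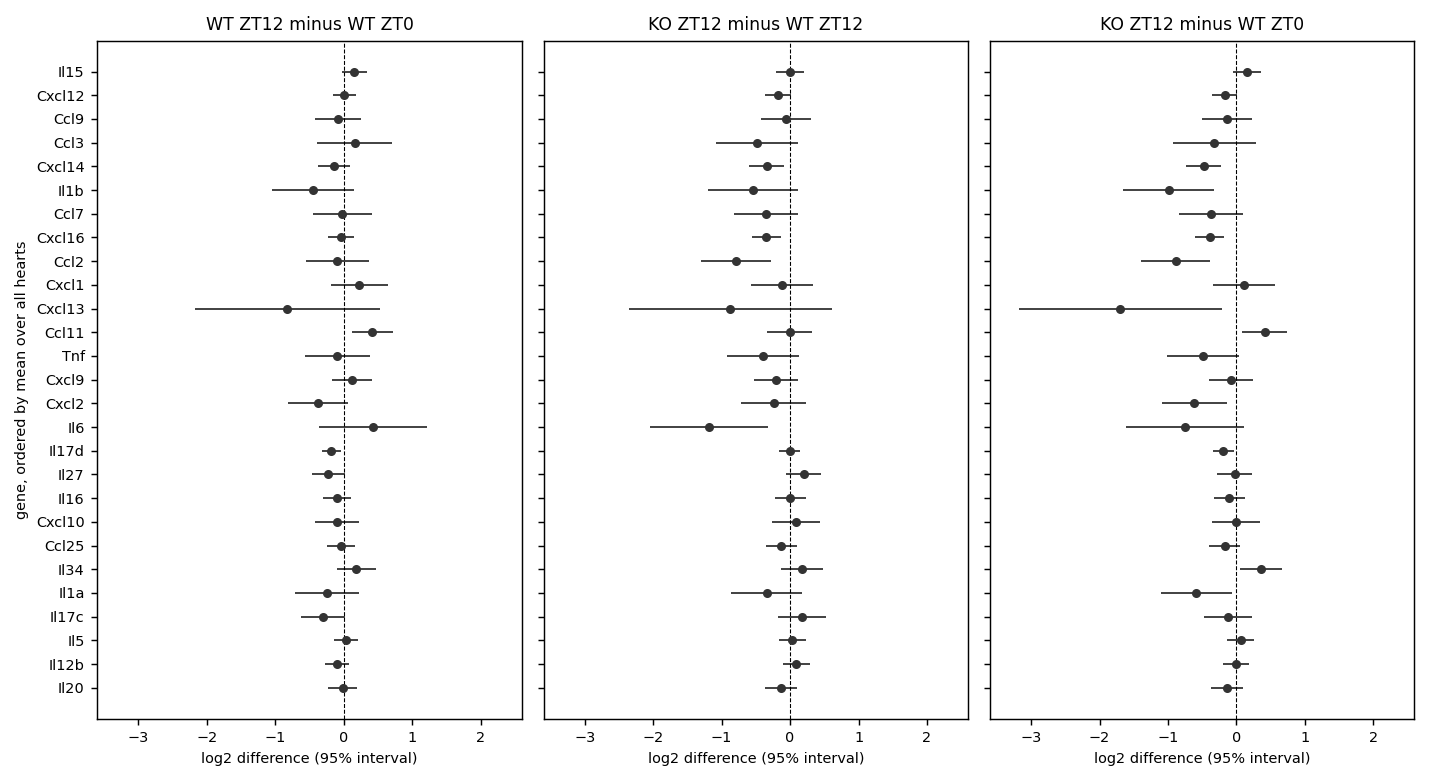
Log2 differences with 95% intervals from limma for 27 members, in WT ZT12 minus WT ZT0, KO ZT12 minus WT ZT12 and KO ZT12 minus WT ZT0. Intervals below 0 in the middle panel belong to Il6, Ccl2, Cxcl16 and Cxcl14, none of which passed after adjustment.

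Il6, the ligand of the receptor pair encoded by Il6ra and Il6st, led the gp130 family. At ZT0 its log2 level ran from 4.58 over a median of 5.15 to 5.59. At ZT12 it ran from 4.71 over 5.44 to 7.37. In the knockout it was 6.28, 4.25, 3.68, 4.31 and 3.55 in replicates 1 to 5. Thus 4 knockout hearts lay below every wild-type heart and replicate 1 lay above all but 1 of them. The mean was 5.59 ± 0.90 in wild type at ZT12 and 4.41 ± 1.1 in the knockout (SD, n = 7 and 5), a 2.26-fold lower level. Its log2 difference of -1.18 (SE 0.415, 95% interval -2.04 to -0.32) did not pass (adjusted p = 0.259). Without knockout replicate 1 the log2 difference was -1.64 and passed (adjusted p = 0.0314). Without wild-type ZT12 replicate 2 it was -0.88 and did not pass. With the mean of the atrial muscle markers as a covariate it was -0.68 (adjusted p = 0.519). Between the wild-type groups the log2 difference was 0.42 (SE 0.378, adjusted p = 0.731), and knockout minus wild type at ZT0 gave -0.75 (SE 0.415, adjusted p = 0.485). The first of these was 0.13 without wild-type ZT12 replicate 2 (adjusted p = 0.928). The second was -1.22 without knockout replicate 1 (adjusted p = 0.101), and with the atrial muscle covariate it turned to 0.18 (adjusted p = 0.933). In whole hearts, fewer cells of a type and less RNA per cell cannot be told apart.

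The other gp130 family genes varied less. Lif, which signals through Lifr and Il6st, was at 3.19 to 3.64 at ZT0, 3.16 to 3.87 at ZT12 and 3.13 to 3.70 in the knockout. Il27, a subunit of a cytokine of antigen-presenting cells, had the largest positive difference of knockout against wild type at ZT12 among the readable members, at 0.20 (SE 0.124, adjusted p = 0.61). Il11 and Il31 lay under the olfactory receptor level in every group mean.

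The promoters of Il6 and of the neutrophil-attracting chemokine genes Cxcl1 and Cxcl2 share a kappaB motif, the sequence NF-kappaB binds. Each is shown from 250 bases before to 50 bases after the transcription start in RefSeq for GRCm38.p6, on the plus strand of chromosome 5, with the motif in capitals. Il6 is at chr5:30012864-30013163, Cxcl1 at chr5:90890995-90891294 and Cxcl2 at chr5:90903649-90903948.
Il6: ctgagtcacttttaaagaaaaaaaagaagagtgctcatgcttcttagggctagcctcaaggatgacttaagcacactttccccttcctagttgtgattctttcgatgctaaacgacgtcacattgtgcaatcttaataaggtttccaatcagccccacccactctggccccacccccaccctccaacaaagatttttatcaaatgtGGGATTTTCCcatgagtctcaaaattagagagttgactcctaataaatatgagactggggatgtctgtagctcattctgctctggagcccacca
Cxcl1: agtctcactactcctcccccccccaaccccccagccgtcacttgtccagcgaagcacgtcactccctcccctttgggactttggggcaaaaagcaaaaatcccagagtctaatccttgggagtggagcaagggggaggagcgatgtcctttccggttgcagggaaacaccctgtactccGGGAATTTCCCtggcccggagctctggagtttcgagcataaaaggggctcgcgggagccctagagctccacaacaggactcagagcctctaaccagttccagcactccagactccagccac
Cxcl2: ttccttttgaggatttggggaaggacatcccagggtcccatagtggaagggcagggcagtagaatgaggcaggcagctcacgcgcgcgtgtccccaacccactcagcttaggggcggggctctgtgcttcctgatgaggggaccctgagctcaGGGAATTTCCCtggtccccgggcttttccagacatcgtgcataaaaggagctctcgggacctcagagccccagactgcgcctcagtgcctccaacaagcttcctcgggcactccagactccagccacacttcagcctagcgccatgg
The motif was searched on both strands as GGGA, any 2 bases, then TTCC. In Cxcl1 and Cxcl2 a plus-strand and a minus-strand match overlap, which makes the run in capitals longer by 1 base than in Il6. The Il6 match begins 44 bases before the start, the Cxcl1 match 71 and the Cxcl2 match 97.

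Promoters of the same length were listed for 45 of the 65 members. The kappaB motif was found for 7 of these 45 genes (15.6%), which were Ccl1, Cxcl1, Cxcl2, Cxcl3, Cxcl10, Il6 and Il16, and in 1.47% of the 32851 promoters of all genes. An AP-1 motif, TGANTCA, was found for 11 of them (24.4%, against 7.81% of all promoters), Il6 and Lif included. The core of the element bound by Rev-erb and ROR proteins, TNGGTCA, was found for 8 (17.8%, against 11%), among them Cxcl13, Ccl3 and Ccl9. A gene with several listed starts was counted once, so the shares of genes and of promoters are not on the same footing. These are matches of letters in one window and say nothing of whether a protein binds there. Cxcl1, Cxcl2, Tnf and Il1b all varied with Il6 across hearts, as described further on. Tnf and Il1b had no match to this 1 kappaB string in the window, which cannot show that they lack kappaB sites. Ccl2 and Ccl7, which also varied with Il6, had no listed promoter. Whether the motif bears on these relations was not tested.

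Ccl2, the main chemokine of inflammatory monocytes, showed the second pattern of low knockout hearts. Its log2 level ran from 5.87 over a median of 5.99 to 6.34 at ZT0, and from 5.34 over 6.06 to 6.36 at ZT12. In the knockout it was 6.27, 5.47, 4.25, 5.23 and 4.60 in replicates 1 to 5. Replicates 3, 4 and 5 lay below all wild-type hearts, and replicate 1 was among the high ones. The knockout mean of 5.16 ± 0.79 (SD, n = 5) was 1.73-fold lower than 5.95 ± 0.36 in wild type at ZT12 (SD, n = 7). The log2 difference was -0.79 (SE 0.243, 95% interval -1.30 to -0.29) and did not pass (adjusted p = 0.176). Against wild type at ZT0 it was -0.89 (SE 0.243, adjusted p = 0.0789), and between the wild-type groups -0.096 (SE 0.222, adjusted p = 0.916). Without knockout replicate 1 the first 2 of these were -1.07 (adjusted p = 0.015) and -1.16 (adjusted p = 0.00445), and both passed. Without knockout replicate 3 they were -0.56 and -0.66, and neither passed. With the atrial muscle mean as a covariate they were -0.59 (adjusted p = 0.378) and -0.51 (adjusted p = 0.535).

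**Figure D3:**
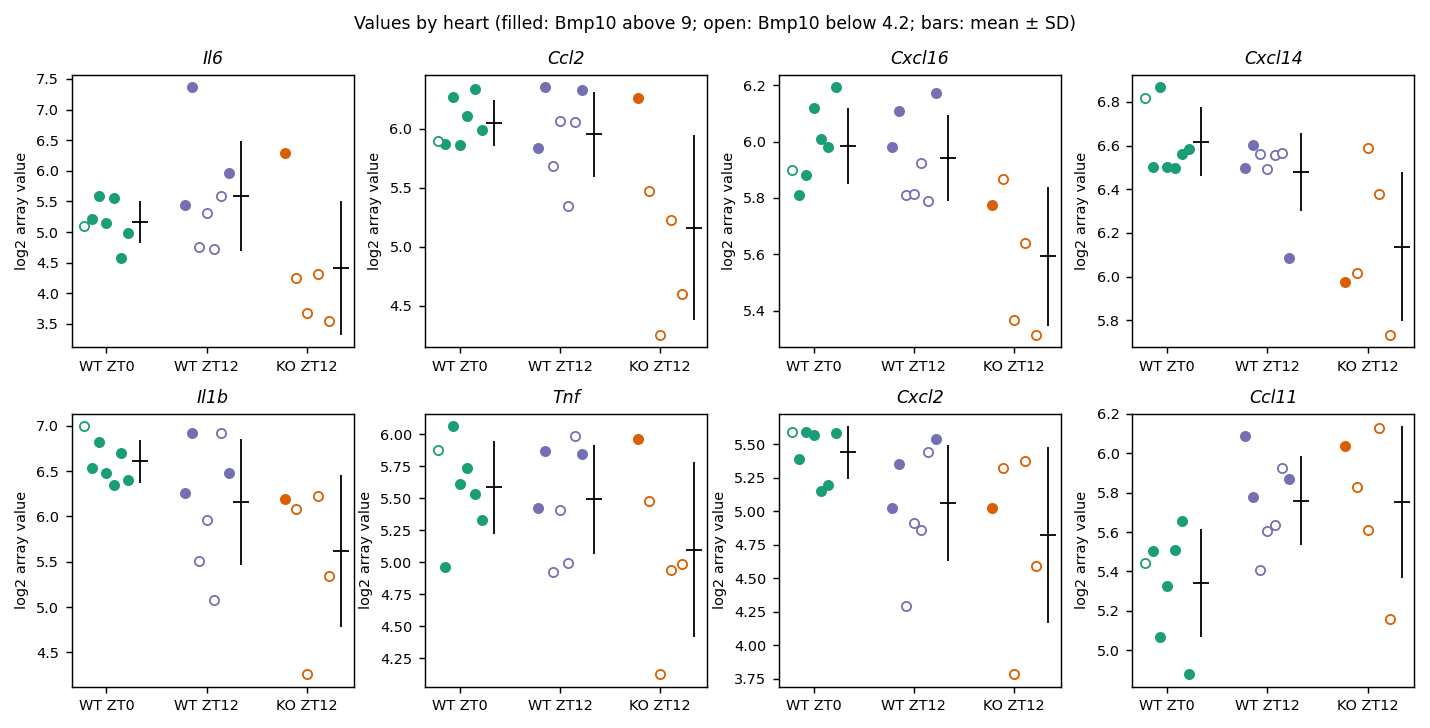
Log2 array values of 8 members in each heart, with group mean and SD as a cross, for WT ZT0 (n = 7), WT ZT12 (n = 7) and KO ZT12 (n = 5). Filled points are the 10 hearts with Bmp10 at 9.01 or more and open points the 9 hearts with Bmp10 at 4.15 or less. Knockout replicate 1 is the filled knockout point and the highest of its group for Il6, Ccl2 and Tnf.

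With Ccl2 counted, 11 of 13 inflammatory CC chemokines were below 0 in either comparison of the knockout with wild type, and the other negative differences were smaller than that of Ccl2. Ccl3, a chemokine made by macrophages, was at 5.91 to 6.97 at ZT0 and 5.96 to 7.42 at ZT12, and at 7.31, 6.71, 5.13, 5.96 and 6.30 in the knockout. Its log2 difference from wild type at ZT12 was -0.48 (SE 0.288, adjusted p = 0.592), and knockout replicates 1 and 3 spanned most of the range of all hearts. Without replicate 3 that Ccl3 difference was -0.19 (adjusted p = 0.872). Ccl7, a ligand of CCR2 like Ccl2, was at 6.36, 6.57, 5.11, 6.23 and 5.16 in the knockout and at 5.80 to 6.80 in wild type at ZT12, with a log2 difference of -0.35 (SE 0.226, adjusted p = 0.621), and of -0.16 without replicate 3. Ccl9, a macrophage-attracting chemokine of rodents, was at 6.09 to 7.19 in wild type and 6.14 to 6.97 in the knockout, with log2 differences of -0.14 to -0.061. Ccl24, an eosinophil chemokine, gave -0.49 for knockout minus wild-type ZT0 (SE 0.158, adjusted p = 0.157). It was named here after its values were seen.

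Ccl11, the eosinophil chemokine eotaxin, ran the other way between the wild-type groups. It was at 4.88, 5.44 and 5.66 (lowest, median, highest) at ZT0 and at 5.41, 5.78 and 6.09 at ZT12. The ZT12 mean was 1.34-fold higher (log2 difference 0.42, SE 0.143), and the groups overlapped. This was the member with the smallest adjusted p between the times of day, 0.214. The knockout at ZT12 was at 6.03, 5.83, 5.61, 6.13 and 5.16, with a log2 difference from wild type at ZT12 of -0.0070 (SE 0.156). The 5 other CC chemokines gave log2 differences of -0.11 to 0.13 between the times of day. Ccl25, a chemokine of thymus and gut, was the only one of them named by rule and was at 3.69 to 4.25 in wild type and 3.53 to 4.03 in the knockout.

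The ELR CXC chemokines recruit neutrophils through CXCR2. Cxcl1 was at 5.08 to 5.94 at ZT0, 5.0003 to 6.64 at ZT12 and 6.32, 5.73, 5.16, 5.83 and 5.41 in the knockout. Unlike Il6 it had knockout and wild-type ZT12 means close to each other, 5.69 ± 0.44 and 5.81 ± 0.50 (SD, n = 5 and 7), with a log2 difference of -0.12 (SE 0.22, adjusted p = 0.909). Cxcl2 was at 5.15, 5.57 and 5.59 (lowest, median, highest) at ZT0 and at 4.29, 5.02 and 5.54 at ZT12. In the knockout it was 5.03, 5.32, 3.78, 5.38 and 4.59, so that replicate 3 was the lowest of all 19 hearts. Its log2 differences were -0.38 between the times of day (SE 0.209, adjusted p = 0.513) and -0.62 for the knockout against ZT0 (SE 0.229, adjusted p = 0.238). Without knockout replicate 3 the second was -0.36 (adjusted p = 0.475), and the Cxcl2 difference from wild type at ZT12 turned from -0.24 to 0.021. All 5 genes of the class had a negative difference of the knockout from wild-type ZT12 hearts, between -0.24 and -0.066, and Cxcl3 and Cxcl15 were under the olfactory receptor level.

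Cxcl16 and Cxcl14 had the smallest p-values of all members in the knockout against wild type at ZT0. Cxcl16, the membrane-bound ligand of CXCR6, was at 5.81 to 6.19 at ZT0 and at 5.79 to 6.17 at ZT12. The knockout hearts were at 5.78, 5.87, 5.37, 5.64 and 5.31, and 4 of them lay below every wild-type heart. The log2 difference was -0.35 from wild type at ZT12 (SE 0.102, adjusted p = 0.143) and -0.39 from ZT0 (SE 0.102, adjusted p = 0.0583). Cxcl14, a chemokine made by epithelial and stromal cells, was at 6.50 to 6.87 at ZT0, 6.08 to 6.60 at ZT12 and 5.98, 6.02, 6.59, 6.38 and 5.73 in the knockout. Its differences were -0.34 (SE 0.124, adjusted p = 0.281) and -0.48 (SE 0.124, adjusted p = 0.0583). Against ZT0 both passed when only genes above the olfactory receptor level were tested (adjusted p = 0.031 for Cxcl16 and 0.0333 for Cxcl14). With the atrial muscle covariate neither did, at -0.32 for Cxcl16 (adjusted p = 0.343) and -0.48 for Cxcl14 (adjusted p = 0.225). With Bmp10, an atrial gene, as a covariate chosen after seeing the data, Cxcl16 gave -0.25 (adjusted p = 0.455) and Cxcl14 -0.61 (adjusted p = 0.0686). Their ranks among the knockout hearts differed: replicate 3 was the highest for Cxcl14 and the second lowest for Cxcl16. Cxcl12, the CXCR4 ligand made by stroma and endothelium, was steadier, at 6.53 to 7.02 in wild type and 6.32 to 6.77 in the knockout (log2 difference from wild type at ZT12 -0.18, SE 0.0903, adjusted p = 0.491).

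Cxcl13, which attracts B cells through CXCR5, had the widest spread within groups of all members, with a pooled SD of 1.39. It was at 4.22, 6.59 and 7.49 (lowest, median, highest) at ZT0 and at 4.002, 4.47 and 8.94 at ZT12. In the knockout it was 6.001, 4.61, 4.88, 4.49 and 3.71. Its log2 differences were -0.82 between the times of day (SE 0.649, adjusted p = 0.682), -0.87 in the knockout at ZT12 (SE 0.71, adjusted p = 0.72) and -1.70 in the knockout against ZT0 (SE 0.71, adjusted p = 0.314). The hearts fell into 2 sets, and these were the same as for Bmp10, a gene of right atrial muscle. In the 10 hearts with Bmp10 at 9.01 to 10.30, Cxcl13 was at 6.001 to 8.94, and in the 9 hearts with Bmp10 at 2.66 to 4.15 it was at 3.71 to 4.88. The first set held 6 hearts at ZT0, 3 at ZT12 and 1 of the knockout. Of the 37 readable members, Cxcl13 was the only one whose values did not overlap between these sets. How many of all genes separate in this way was not counted, so the count cannot be judged against a background share. With Bmp10 as a covariate, chosen after seeing the data, the 3 log2 differences were 0.40, -0.085 and 0.31, and none passed. The 6 atrial muscle markers were all measured, and their list mean was at 7.83 to 9.50 at ZT0, 5.70 to 9.26 at ZT12 and 5.19 to 9.22 in the knockout.

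**Figure D4:**
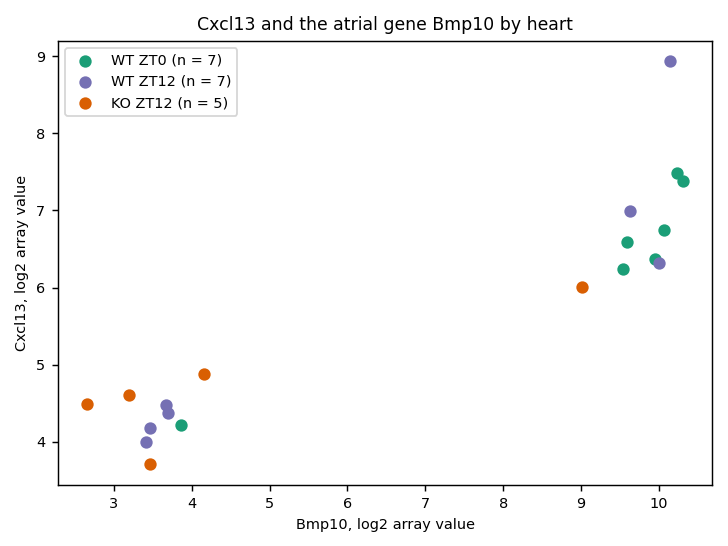
Cxcl13 against Bmp10 in each of the 19 hearts, both as log2 array values, coloured by group. The 10 hearts on the right have Cxcl13 at 6.001 or more and the 9 on the left have it at 4.88 or less.

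The CXCR3 ligands, which attract T cells and are induced by interferon, gave no pattern by group. Cxcl9 was at 4.76 to 5.76, 5.24 to 6.01 and 4.99 to 5.56 in the ZT0, ZT12 and knockout hearts, and the largest difference from wild type in the knockout was -0.20 (SE 0.155, adjusted p = 0.701). Cxcl10 was at 3.88 to 4.27, 3.56 to 4.83 and 3.82 to 4.54 in the same order. Its log2 difference in the knockout at ZT12 was 0.086 (SE 0.169, adjusted p = 0.912).

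Il1b and Il1a encode the ligands of the interleukin 1 receptor. Il1b was at 6.34, 6.54 and 6.996 (lowest, median, highest) at ZT0 and at 5.08, 6.26 and 6.92 at ZT12. In the knockout it was 6.19, 6.08, 4.26, 6.23 and 5.34, all below the lowest ZT0 heart, which made it the only member without overlap in any comparison. Of all genes, 0.532% were lower without overlap in this comparison and 1.19% higher. The shares were 0.374% lower and 0.528% higher between the times of day, and 0.428% lower and 0.969% higher in the knockout at ZT12. The knockout mean was 1.99-fold below that at ZT0 (log2 difference -0.99, SE 0.319, adjusted p = 0.15). The wild-type ZT12 mean lay between them, at -0.45 from ZT0 (SE 0.291, adjusted p = 0.596), and the knockout was at -0.54 from it (SE 0.319, adjusted p = 0.58). Il1a was close to the olfactory receptor level, and its knockout mean of 2.91 lay under it. Its values were 3.14 to 3.91 at ZT0, 2.41 to 3.85 at ZT12 and 2.31 to 3.56 in the knockout. Tnf was at 4.96 to 6.06 at ZT0 and 4.93 to 5.98 at ZT12, and at 5.96, 5.48, 4.12, 4.94 and 4.99 in the knockout. Its log2 difference from wild type at ZT12 was -0.39 (SE 0.252, adjusted p = 0.621), and replicate 3 was the lowest of all hearts for both Tnf and Il1b. Without that heart the knockout differences from ZT12 were -0.15 for Tnf (adjusted p = 0.893) and -0.20 for Il1b (adjusted p = 0.875), and that of Il1b from ZT0 was -0.65 (adjusted p = 0.329).

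In the interleukin 17 family, whose ligands induce chemokines in stromal cells, all 6 genes had a negative difference between ZT12 and ZT0, from -0.30 for Il17c to -0.050 (adjusted p 0.249 to 0.936). Of all genes, 51.2% were below 0 there. Il17a and Il17b were under the olfactory receptor level, and Il17c, with a mean of 3.22, was barely above it. Il17d, the readable gene with the tightest values, was at 4.59 to 4.98 at ZT0, 4.39 to 4.70 at ZT12 and 4.55 to 4.68 in the knockout. Its log2 difference between the times of day was -0.19 (SE 0.0667, adjusted p = 0.249). Il17c was at 2.88 to 4.06 at ZT0 and 2.77 to 3.28 at ZT12, where the ZT0 SD of 0.444 was more than the difference. In the knockout at ZT12 the family gave 3 positive and 3 negative differences.

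Il15, a growth factor of natural killer and memory T cells, was steady at 6.51 to 6.86 at ZT0, 6.72 to 7.05 at ZT12 and 6.52 to 7.10 in the knockout, with log2 differences of 0.15 (SE 0.0886, adjusted p = 0.551) between the times of day and 0.00060 in the knockout at ZT12. Il34, an alternative ligand of the macrophage growth factor receptor CSF1R, was at 3.01 to 3.55 at ZT0, 2.66 to 3.62 at ZT12 and 3.22 to 3.92 in the knockout. Its log2 difference of the knockout from ZT0 was 0.36 (SE 0.149, adjusted p = 0.302). Il16, a CD4 ligand, was at 3.87 to 4.58 over the wild-type hearts and 3.96 to 4.52 in the knockout. The members of the dim classes named by rule, Il20, Il12b and Il5, had means of 2.34, 2.90 and 2.91, and log2 differences between -0.14 and 0.092.

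Of 50 genes for receptors, signalling and adhesion, 48 were measured, and 0 were called by limma in any comparison. Of all genes, 1.13% were called between the times of day, 0.73% in the knockout at ZT12 and 1.34% in the knockout against ZT0. At an unadjusted p under 0.05 there were 1 higher and 3 lower between the times of day (8.33%, against 11.5% of all genes), 2 higher and 3 lower in the knockout at ZT12 (10.4%, against 10.6%), and 0 higher and 4 lower in the knockout against ZT0 (8.33%, against 12.6%). The share in the knockout at ZT12 was close to that of all genes, and the others were lower. Tnfrsf1b, a receptor of Tnf, was at 5.04 to 5.31 in wild type at ZT12 and at 4.83, 5.07, 4.77, 4.86 and 4.49 in the knockout, where only replicate 2 reached the range of those wild-type hearts. Its log2 difference was -0.40 (SE 0.0961, adjusted p = 0.0508). Csf1, the main macrophage growth factor, gave -0.27 (SE 0.0904, adjusted p = 0.232). Between the times of day the smallest p-values belonged to Il18r1, a dim receptor gene (-0.31, SE 0.121), and to Tnfaip3, an inhibitor of NF-kappaB (-0.55, SE 0.218), both with an adjusted p of 0.315. The Il6 receptor genes Il6ra and Il6st gave -0.14 (SE 0.125) and -0.032 (SE 0.0614) in the knockout at ZT12, and Ccr2, the receptor of Ccl2, was under the olfactory receptor level.

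Across hearts, several of these genes moved with Il6. Correlations were computed on deviations from the group means in all 19 hearts, for 9 genes, with two-sided permutation tests of 100000 resamples and Benjamini-Hochberg adjustment over the 9. Cxcl1 had r = 0.819 (adjusted p = 9e-05, unadjusted p the smallest the resamples can give; rho = 0.696, adjusted p = 0.00675). Ccl2 had r = 0.785 (adjusted p = 0.00018; rho = 0.64, adjusted p = 0.0085). Tnf had r = 0.706 (adjusted p = 0.00198; rho = 0.688, adjusted p = 0.00675) and Il1b r = 0.644 (adjusted p = 0.00884; rho = 0.668, adjusted p = 0.00717). These are members of different classes. The correlations pool the deviations of the 3 groups, and in the ZT0 hearts alone none of them passed. The resamples shuffled hearts across groups, while the SD of Il6 was 0.345 at ZT0, 0.899 at ZT12 and 1.10 in the knockout. Where the spread of 2 genes rises in the same groups, the p-values of this test can be too small.

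The relations with Ccl7 (r = 0.60, adjusted p = 0.0104; rho = 0.489, adjusted p = 0.0532) and Cxcl2 (r = 0.497, adjusted p = 0.0457; rho = 0.537, adjusted p = 0.0354) were weaker. Lif gave r = 0.068 (adjusted p = 0.784; rho = -0.114, adjusted p = 0.639). The immediate early genes Fos (r = 0.351, adjusted p = 0.156; rho = 0.163, adjusted p = 0.601) and Atf3 (r = 0.429, adjusted p = 0.081; rho = 0.153, adjusted p = 0.601) did not pass. Knockout replicate 1 and wild-type ZT12 replicate 2 were farthest in Il6. Without them r was 0.675 for Cxcl1, 0.672 for Ccl2, 0.65 for Tnf, 0.623 for Il1b and 0.612 for Cxcl2 (adjusted p 0.0135 to 0.0156). For Ccl7 it was 0.471 and no longer passed (adjusted p = 0.0849).

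**Figure D5:**
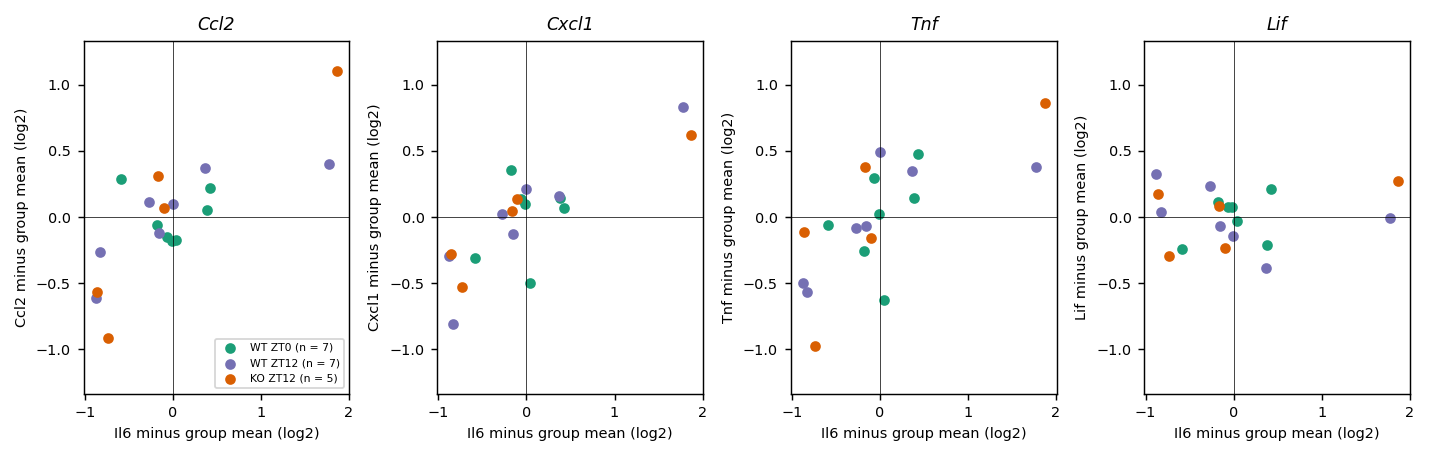
Deviation of Ccl2, Cxcl1, Tnf and Lif from the group mean (log2) against that of Il6 in each of the 19 hearts, coloured by group. Ccl2, Cxcl1 and Tnf climb with Il6 (r = 0.785, 0.819 and 0.706) and Lif does not (r = 0.068); 2 hearts lie far to the right.

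Within the groups the relations were uneven. In the 7 wild-type ZT12 hearts, exact permutation tests adjusted over 18 relations gave r = 0.969 for Ccl7 (adjusted p = 0.0107; rho = 0.964, adjusted p = 0.025) and r = 0.913 for Cxcl1 (adjusted p = 0.0268; rho = 0.893, adjusted p = 0.0554). Ccl2 gave 0.818, Il1b 0.80 and Tnf 0.756 there, each with an exact adjusted p of 0.0792. By rank Il1b passed (rho = 0.964, exact adjusted p = 0.025). Ccl2 (rho = 0.893, exact adjusted p = 0.0554) and Tnf (rho = 0.857, exact adjusted p = 0.0714) did not. In the same hearts Atf3 gave r = 0.804 (exact adjusted p = 0.0792) and Fos r = 0.758 (exact adjusted p = 0.209), and neither passed by rank. In the 7 ZT0 hearts no relation passed: r was -0.0998 for Ccl2 (exact adjusted p = 0.824), 0.283 for Cxcl1 and -0.518 for Ccl7. The difference between the groups was not tested. No correlation is given within the 5 knockout hearts. Il6 ranged over 4.58 to 5.59 at ZT0, a narrower span than in the other groups.

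The spread between hearts also differed by group. Among the 37 readable members the median SD was 0.220 at ZT0, 0.304 at ZT12 and 0.293 in the knockout, while over all genes above the olfactory receptor level it was 0.153, 0.152 and 0.154. The largest of the 3 SDs was that of the knockout for 19 of the 37 members (51.4%, against 37.1% of those genes), that of ZT12 for 15 (40.5%, against 30.1%) and that of ZT0 for 3 (8.11%, against 32.8%). These counts were not tested. Within the knockout, replicate 3 was the lowest for 15 of the 37 members and replicate 1 the highest for 14. Replicate 3 was also the highest for 7 of them, and replicate 1 the lowest for 7. The shares over all genes were not counted, so these counts cannot be judged against a background.

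Other lists also differed between these hearts, not always in the direction of the members. Knockout replicate 3 had the lowest mean of the 20 immediate early genes of all hearts, 6.96, and replicate 1 had 7.81. The immediate early list mean was at 7.29 to 7.78 at ZT0, 7.06 to 8.14 at ZT12 and 6.96 to 7.81 in the knockout. With it as a covariate the knockout minus wild-type ZT12 difference was -0.89 for Il6 (adjusted p = 0.348) and -0.59 for Ccl2 (adjusted p = 0.194). Knockout replicate 1 was also the only knockout heart with high Bmp10, at 9.01, and had the highest adipocyte list mean, 5.70. Knockout replicate 5, the lowest heart for Il6, Cxcl16 and Cxcl14, had the lowest macrophage list mean of all hearts, 5.40, and the lowest fibroblast list mean, 6.86. That heart had an immediate early mean of 7.79, close to that of replicate 1. Of the knockout hearts, replicate 3 had the highest macrophage list mean, 6.27, and replicate 1 had 5.88. All 8 macrophage markers were measured, 7 of them with a negative difference in the knockout at ZT12, and 0 were called, against 0.73% of all genes. Among them Adgre1 gave -0.28 (SE 0.15, adjusted p = 0.539). Against wild type at ZT0, the comparison with the most low members, 5 macrophage markers were lower and 1 higher at an unadjusted p under 0.05 (75%, against 12.6% of all genes), with a median log2 difference of -0.34. None of the 8 was called there (1.34% of all genes were), and Adgre1 had the smallest adjusted p, 0.0699 (log2 difference -0.56, SE 0.15).

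The 5 mast cell markers all had negative differences in the knockout in both comparisons. At an unadjusted p under 0.05, 3 of the 5 were lower at ZT12 (60%, against 10.6% of all genes) and 2 against ZT0 (40%, against 12.6%), and 0 were called. Cpa3, a mast cell protease, gave -0.42 at ZT12 (SE 0.109, adjusted p = 0.0816). The mast cell list mean was at 2.86 to 3.18 at ZT0, 2.89 to 3.31 at ZT12 and 2.68 to 2.98 in the knockout, and Mcpt4, Tpsb2 and Cma1 were under the olfactory receptor level. The 8 fibroblast markers gave 4 positive and 4 negative differences in the knockout at ZT12. The part of macrophage, mast cell, adipocyte or fibroblast content in the members' differences was not tested.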

How the data were processed

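The authors deposited log2 probe set values made with RMA, per the submitters' processing notes, which corrects background, normalizes quantiles and summarises probes. The log2 scale was taken from the values, which ran from 0.21 to 12.88; the RMA version is not given in the sources used here. Of 41345 probe sets, 23521 list 1 gene in the platform annotation. The probe set with the highest mean stood for a gene, giving 22180 genes. Replicates are called biological in the labels and no batch is named, so each array was 1 heart.

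The 3 groups (n = 7, 7 and 5) were fitted in 1 model with limma 3.58.1 in R 4.3.3 (lmFit, eBayes without trend), two-sided, adjusted by Benjamini-Hochberg over 22180 genes, and called at an adjusted p under 0.05. The procedure was tested on simulated data. Correlations used scipy 1.17.1. Alternatives were other filters, normalization, fits, covariates and left-out hearts. The labels give no pairing, and same-numbered hearts were not treated as pairs in the main fit.

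Members and lists were chosen with earlier results of these data known. Named members were Il6, Ccl2, any called member, the 5 largest differences of each sign among readable members in the comparisons of times and of genotypes at ZT12, the 12 brightest, the 6 most variable, and the brightest of each class. Of the receptor list, the 2 smallest p-values per comparison were named. Promoters came from RefSeq (GRCm38.p6). The number of arrays limits the precision.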

Additional observations from a re-analysis of the deposited data

Results flagged for a closer look

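Among 27 named members in 3 groups, 6 of 81 sets of values had a heart set apart from the rest of its group by Dixon's criterion, where chance alone gives about 5%. Il6 in knockout replicate 1 was at 6.28, with the next knockout heart at 4.31. Cxcl10 in the same heart was at 4.54, with the next at 3.99. Cxcl13 in wild-type ZT0 replicate 1 was at 4.22, with the next heart at 6.24, and this was the only ZT0 heart with low Bmp10. Cxcl14 in wild-type ZT12 replicate 7 was at 6.08, with the next at 6.49. Il34 in wild-type ZT12 replicate 4 was at 2.66, with the next at 3.37. Il20, a dim gene, was at 2.56 in knockout replicate 5, with the next at 2.24.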

How the results depend on the processing

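Members were called in the knockout at ZT12 against wild type at ZT0 under 5 settings beside those that leave out 1 heart: 3 with genes above the olfactory receptor level alone or with a trend in eBayes (Ccl2, Cxcl14 and Cxcl16 each time), 2 after a second quantile normalization (Cxcl14 and Cxcl16), 4 with the immediate early mean as a covariate (Ccl2, Ccl24, Cxcl14 and Il1b), and 2 without knockout replicates 1 and 3 (Ccl2 and Cxcl14), a setting chosen after seeing the data. All were lower in the knockout. Leaving out 1 heart gave 0 to 1 members there, 0 to 2 in knockout against wild type at ZT12 (2 without knockout replicate 1) and 0 between the times of day. The single calls against ZT0 were Ccl2 without knockout replicate 1 (adjusted p = 0.00445), Cxcl16 without knockout replicate 2 (0.0291), Cxcl14 without knockout replicate 3 (0.0116) and Cxcl14 without wild-type ZT12 replicate 7 (0.0414). Over the 27 named members and all 3 comparisons, 2242 of 2259 planned and 160 of 162 added values stayed on their side of the threshold, and the other 17 and 2 passed it.

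Over all genes, 162 were called in the knockout at ZT12, and 256 with genes above the olfactory receptor level alone, 267 with the trend, 72 with only the arrays compared and 94 to 161 leaving out 1 heart. Against ZT0, 298 were called, and 455 with the level filter, 187 with only the arrays compared, 164 with the atrial covariate, 134 with Bmp10 as a covariate and 171 to 311 leaving out 1 heart. Between the times of day the count was 250, and 375 with the level filter, 359 with the trend and 185 to 269 leaving out 1 heart. The replicate block gave 171, 88 and 182 genes for the times of day, the knockout at ZT12 and the knockout against ZT0, and 0 members in each. Same-numbered hearts correlated at -0.126 to 0.127, over 0.1 in 1 of 17 pairs. No pairing by number was seen, though such correlations could miss a weak shared effect. The members' median difference kept its sign when 1 heart was left out, at -0.033 to -0.0076, -0.104 to -0.053 and -0.0991 to -0.066 in the same order. With Bmp10 as a covariate, chosen after seeing the data, that between the times of day turned to 0.00012. Of the relations with Il6, that of Ccl7 fell short without the 2 farthest hearts (r = 0.471). Without removing group means Cxcl2 fell short (0.481) and Atf3 passed (0.528). Leaving out 1 heart at a time, the relation of Lif ran from -0.224 (without knockout replicate 1) to 0.213 and was -0.0314 without knockout replicate 3. The cause of these shifts was not tested. Signal over background limits the 28 dim members, which cannot be told from background.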
